A study of Mus musculus with 6 samples.

Results

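Neutrophils were taken as cells of the 6 tumor libraries that held the calprotectin genes S100a8 and S100a9 together with a second group of neutrophil genes and almost none of the genes of monocytes, macrophages, T cells or B cells. A cell had to hold at least 250 genes, at most 5% mitochondrial unique molecular identifiers (UMIs, 1 per captured transcript), a sum of S100a8 and S100a9 of at least 10 UMIs and a sum of Csf3r, Cxcr2, Retnlg and G0s2 of at least 4 UMIs. It could hold at most 1 Csf1r UMI and 2 UMIs of C1qa, C1qb and C1qc, and 0 of Cd3d, Cd3e, Cd3g and Cd79a. The rule chose 3496 neutrophils, which were 6.77% of the 51633 cells that passed both limits on quality and came from 57078 barcodes in all.

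Each library came from the tumor of 1 mouse. Female C57BL/6 mice, 6 to 8 weeks old, carried orthotopic tumors of KPCA, a mouse ovarian cancer line with intact homologous recombination with mutant Trp53 that overexpresses Ccne1 and Akt2. The groups were control (solvent and a control rat IgG), 2DG (2-deoxyglucose, a glucose analog that blocks glycolysis and the building of N-glycans), 2FF (2-fluorofucose, an inhibitor of fucosylation), an antibody against PD-L1 (anti-PD-L1), and each inhibitor together with the antibody, written 2DG plus anti-PD-L1 and, for the other inhibitor, 2FF plus anti-PD-L1. In both 2FF groups the tumor cells had also met 2FF in culture before injection, 2DG and the antibody were given from day 9, and all mice were killed at day 30. The labels call the tissue lymph node and the series text speaks of young and aged mice, whereas the methods describe these KPCA tumors. The T cell gate (at least 2 UMIs of Cd3d, Cd3e and Cd3g) held 13068 cells, and all 6 libraries held myeloid and lymphoid cells.

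Neutrophils are short-lived granulocytes made in the bone marrow under G-CSF, whose receptor is Csf3r, and called into tissue through Cxcr2 by chemokines such as Cxcl1 and Cxcl2. Their granule proteins are made in sequence as the cells mature, so that transcripts of azurophil and then specific granule proteins mark younger cells, while transcripts of cytokines and chemokines mark older, activated ones. In tumors, neutrophils can restrain T cells through prostaglandins and PD-L1 (Cd274), and the same cells are often named granulocytic myeloid-derived suppressor cells.

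A group of small protease inhibitor genes on chromosome 16, the stefin cluster, set some neutrophils apart from others in every tumor, and their promoters are shown here because the sequence is shared among neighbours. The promoter windows of 9 stefin genes, 1 each, lay within 324.5 kb (chr16:36131140-36455642, GRCm38.p6), and the genes are tandem copies so alike that reads can be split or lost between them, which makes the count of each single member uncertain. The lines give the 250 bases before the start of a gene in RefSeq, build GRCm38.p6, read 5′ to 3′ on the strand of the gene, with capitals for ACCTTTAAAACC on either strand.
Stfa2l1, chr16:36156561-36156810, plus strand: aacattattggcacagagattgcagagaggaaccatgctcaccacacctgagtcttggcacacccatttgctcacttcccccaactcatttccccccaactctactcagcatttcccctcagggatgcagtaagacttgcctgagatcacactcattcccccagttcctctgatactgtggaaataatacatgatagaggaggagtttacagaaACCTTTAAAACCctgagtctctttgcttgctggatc
Cstdc4, chr16:36183962-36184211, plus strand: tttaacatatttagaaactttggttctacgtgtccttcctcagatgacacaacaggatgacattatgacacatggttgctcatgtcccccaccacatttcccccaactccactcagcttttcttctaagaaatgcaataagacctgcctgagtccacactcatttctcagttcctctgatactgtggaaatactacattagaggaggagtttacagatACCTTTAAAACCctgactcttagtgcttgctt
Csta2, chr16:36221312-36221561, plus strand: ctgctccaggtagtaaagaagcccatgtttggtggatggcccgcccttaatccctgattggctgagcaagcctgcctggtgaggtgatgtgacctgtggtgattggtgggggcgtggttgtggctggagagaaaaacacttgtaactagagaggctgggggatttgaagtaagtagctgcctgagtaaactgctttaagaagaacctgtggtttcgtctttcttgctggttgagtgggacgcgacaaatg
The run ACCTTTAAAACC, picked after the sequences had been seen, lay 36 bases before the start of Stfa2l1 and 32 bases before that of Cstdc4. The search took the longest run shared by at least 7 stefin windows, with those of Stfa2l1 and Cstdc4 required among them. The run was in 7 of the 9 stefin windows, all but Csta1 and Csta2, a number set by that search. It was in 11 of all 32851 promoter windows (0.0335%), which is given as description only. Csta2 is shown as the neighbour without it.

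The glycolysis and interferon genes that differed between the control mouse and the others are represented by Bnip3, a mitochondrial protein of the hypoxia response, Egln3, a prolyl hydroxylase that marks HIF1 for destruction, and Ifit3, an antiviral protein. Capitals mark ACGTG, the core of the hypoxia response element, in Bnip3 and Egln3 (the 2 matches in Bnip3 overlap on opposite strands), and the core of the interferon-stimulated response element (GAAA, 2 bases of any kind, GAAA) in Ifit3, each on either strand.
Bnip3, chr7:138909507-138909756, minus strand: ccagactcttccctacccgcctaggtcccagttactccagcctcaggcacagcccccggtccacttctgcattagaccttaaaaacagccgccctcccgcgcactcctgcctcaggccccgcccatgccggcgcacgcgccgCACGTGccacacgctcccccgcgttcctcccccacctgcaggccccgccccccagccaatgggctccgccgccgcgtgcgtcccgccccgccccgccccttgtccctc
Egln3, chr12:54203875-54204124, minus strand: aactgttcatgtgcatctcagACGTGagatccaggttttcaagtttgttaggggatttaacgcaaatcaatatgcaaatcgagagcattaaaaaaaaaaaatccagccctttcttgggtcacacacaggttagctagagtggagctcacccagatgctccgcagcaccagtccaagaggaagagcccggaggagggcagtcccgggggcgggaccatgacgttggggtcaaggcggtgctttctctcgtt
Ifit3, chr19:34583279-34583528, plus strand: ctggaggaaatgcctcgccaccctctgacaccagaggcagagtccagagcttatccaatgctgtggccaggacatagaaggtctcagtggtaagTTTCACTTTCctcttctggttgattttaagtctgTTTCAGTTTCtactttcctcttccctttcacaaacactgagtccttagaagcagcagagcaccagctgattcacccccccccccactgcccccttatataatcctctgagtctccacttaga
Some genes have several windows. ACGTG was in 15 of 29 windows of the glycolysis and hypoxia list (51.7%), which belong to 21 genes, and in 16.6% of all windows. The interferon element was in 10 of 24 windows of the interferon list (41.7%), also of 21 genes, and in 2.98% of all. A match is a run of letters in a window and was not tested as a binding site.

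The control tumor held most of the neutrophils. It had 2454 among 9075 cells, or 27.0% (26.1 to 28.0%, exact binomial 95% interval), and 70.2% of all neutrophils came from it. The 2DG tumor held 217 of 7703 cells (2.82%), the 2FF tumor 261 of 9222 (2.83%), the anti-PD-L1 tumor 182 of 8801 (2.07%), the 2DG plus anti-PD-L1 tumor 155 of 9026 (1.72%) and the 2FF plus anti-PD-L1 tumor 227 of 7806 (2.91%). The control share was 9.30 to 15.7 times those of the 5 treated tumors, which differed among themselves by up to 1.69-fold. The T cell share moved the other way, with 404 cells (4.45%) in control and 23.6 to 34.7% elsewhere, and each share is of the same total, so that the part of either in the other was not tested. As every group is a single mouse, treatments were compared by size alone and not tested. The intervals cover counting error only, and a difference between groups is a difference between these mice.

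**Figure D1:**
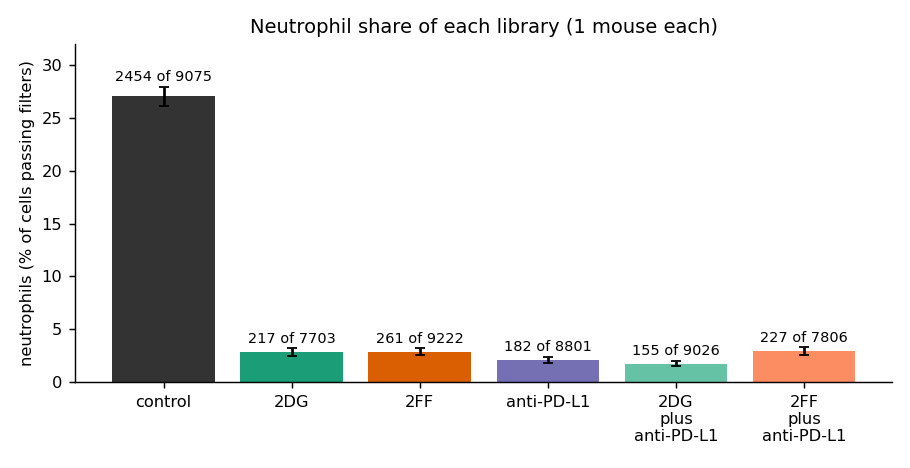
Neutrophils as a percentage of cells that passed the quality limits, 1 bar per library with its exact binomial 95% interval. The control tumor stood at 27.0% and the 5 treated tumors between 1.72% and 2.91%.

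Depth also differed between the libraries. The neutrophils held 13373715 UMIs in control and 984676, 887923, 668661, 525421 and 977732 UMIs in the treated tumors, with the single agents 2DG, 2FF and anti-PD-L1 first and then the combinations of 2DG and of 2FF, an order kept below. The median neutrophil held 4000.5 UMIs in control and 3205, 2547, 2775, 2685 and 3290 UMIs in the others. Levels are given as CPM, which scales the UMIs of a gene to 1000000 neutrophil UMIs of the library, so that 1 UMI was worth 0.0748 CPM in control and 1.02 to 1.90 CPM elsewhere. CPM was used to compare 1 gene between libraries or classes, not to rank genes against each other, except that the gene with the most UMIs of a marker list is named.

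The genes of the rule are given as description only. S100a8 stood at 21711 CPM in control and 42999, 16820.2, 42184, 32869 and 29240.1 CPM and S100a9 at 27732 CPM in control and 53663, 26326, 46267, 32557 and 33158 CPM. Csf3r was close between libraries (1306 CPM in control and 1443, 1403, 1458, 1389 and 1410.4 CPM), whereas Retnlg, a secreted resistin-like protein, ran from 1884 to 7866 CPM. A median neutrophil held 155.5 UMIs of the S100 pair in control and 44 to 103 UMIs elsewhere, so few cells lay near the limit: 81 cells held 10 or 11 UMIs and 66 cells that met every other part of the rule held 8 or 9. For the second sum, 108 neutrophils held 4 UMIs and 129 such cells held 3. At the upper limits, 457 neutrophils held 1 Csf1r UMI against 150 such cells with 2, and 32 neutrophils held 2 C1q UMIs against 11 with 3.

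Of 4319 cells that met both lower limits, 823 were over at least 1 upper limit and were left out, most often for Csf1r (504 cells) or for the Cd3 genes (288 cells). Their median depth was 5915 to 12154 UMIs, above that of the neutrophils in each library. No doublet caller was run. No neutrophil barcode occurred in more than 1 library, and the 15 pairs of libraries shared 16 to 34 barcodes of any cell. Neutrophil transcripts were also found more often outside neutrophils in the control tumor: an S100a9 UMI was seen in 28.2% of its T cells and in 1.47 to 2.92% of T cells elsewhere, at 82.6 CPM against 27732 CPM in its neutrophils.

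Transcripts of other cell types were summed over marker lists. Over 10 macrophage markers, neutrophils held 1282 CPM in control and 679, 1410, 1146, 718 and 962 CPM elsewhere, most UMIs being those of Cd74. The 10 monocyte markers came to 780 CPM in control and 1014 to 1384 CPM elsewhere, most UMIs being those of Ctss, and red cell markers to 4677 CPM in 2FF plus anti-PD-L1 and 0 to 220 CPM in the others. T cell markers came to 36.4 CPM in control and 50.8 to 90.0 CPM elsewhere, B cell markers to 28.6 CPM in control and 53.8 to 168 CPM elsewhere and tumor cell markers to between 0 and 9.01 CPM with Msln and Cldn4 at 0. Basophil and mast cell genes came to at most 5.08 CPM.

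Other neutrophil genes, which the rule did not use, were then described. Against classical monocytes of the same 6 tumors (2111 cells with at least 2 UMIs each of Csf1r and Ly6c2), 18 of 19 measured neutrophil genes outside the rule were higher and none was lower, and against C1q macrophages (4400 cells with at least 2 Csf1r and 10 C1q UMIs) all 19 of 19 were higher. Cells of both other classes could hold at most 1 UMI of Csf3r, Cxcr2, Retnlg and G0s2 together. Ly6g, the surface antigen that defines mouse neutrophils, stood at 44.4 CPM in control and 160.5, 118, 187, 72.3 and 104 CPM in neutrophils and held 2 UMIs in all monocytes against 1122 in all neutrophils. It was at 0 in macrophages, which puts it at least 2001-fold higher in neutrophils (mean CPM over the 6 libraries against 3 UMIs in all macrophages). Hdc, which makes histamine, was at 1399.9 CPM in control and 2099, 2179, 2267, 2320.0 and 2211 CPM in neutrophils against a mean of 2.65 CPM in macrophages (log2 fold change 9.91 ± 0.25 (SE), adjusted p = 3.55e-12). Ly6g passed the count minimum through neutrophils alone, so no p is given for it.

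These comparisons used edgeR's quasi-likelihood test on UMIs summed per class and library, with the library as a block, Benjamini-Hochberg adjustment over all genes tested, and a call at adjusted p under 0.05 and a change of at least 2-fold. The 6 mice are the replicates. The genes that define the gates were left out, except Ly6c2, which was left out against monocytes and kept against macrophages. A gene can pass the minimum of counts through neutrophils alone and then had to differ, so counts over the measured members of a list are descriptions here. Against monocytes, 1421 of 8839 genes (16.1%) were higher in neutrophils and 2248 (25.4%) lower, with a median log2 fold change of -0.24. Against macrophages, 1985 of 11879 (16.7%) were higher and 4084 (34.4%) lower, with a median of -0.46. Since the classes were chosen by the expression of marker genes, genes that travel with those markers had to differ, and with library size alone as scaling the share of higher among called genes against monocytes was 23.7% rather than 38.7% (47.3% with DESeq2).

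The stefins of the chromosome 16 cluster held few UMIs in the other classes. Stfa2l1 stood at 639 CPM in control and 302, 309.7, 331, 375 and 393 CPM in neutrophils and held 2 UMIs in all monocytes against 9919 in all neutrophils. Cstdc4, its neighbour, averaged 574 ± 284 CPM (SD, n = 6) in neutrophils and 1.15 CPM in monocytes, where it held 19 UMIs in all. The neutrophil and monocyte values of both genes did not overlap, which the choice of classes and the count minimum could fix, so no p is given. The stefins other than Cstb, which lies on chromosome 10, held 0 to 30 UMIs each in all monocytes and 0 to 165 UMIs each in all macrophages, against 0 to 17221 UMIs each in all neutrophils. Stfa2 and Cstdc5 were at 0 in monocytes, which puts them at least 246-fold and 154-fold higher in neutrophils, and Csta1 was at 0 everywhere.

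Granule genes stood beside them. Of the 9 measured specific granule genes 8 were higher than in monocytes, and all 10 of 10 were higher than in macrophages. Ngp (neutrophilic granule protein), Camp (the cathelicidin antimicrobial peptide) and Ltf (lactoferrin, which binds iron) differed from monocytes by log2 fold changes of 10.6, 10.0 and 9.67. In monocytes these 3 genes stood at 97.0, 88.4 and 31.0 CPM in the 2DG plus anti-PD-L1 library and at most at 1.51 CPM in the others, and over the alternatives the log2 fold changes ran from 7.70 to 12.9 for Ngp, 7.78 to 12.1 for Camp and 3.05 to 11.8 for Ltf. The lowest Ltf value was the one without cells of at least 3 UMIs of these genes together, where Ngp and Camp had too few UMIs to be fitted, so their ranges do not cover that alternative. Of 8 gelatinase granule and vesicle genes, 5 were higher in each comparison, among them Mmp9, a gelatinase, at 283 CPM in control and 966, 750.1, 971, 697 and 547 CPM. Azurophil genes, which mark the earliest cells, could barely be measured.

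Receptors and ligands that neutrophils use in tissue were higher too. Of 16 migration receptors, 11 were higher than in monocytes and 12 than in macrophages, with none lower, including Cxcr4, which holds cells in the marrow (log2 fold change 1.80 ± 0.16 (SE), adjusted p = 1.76e-07 against monocytes). Of the chemokines and cytokines, 14 of 19 were higher than in monocytes and 13 of 20 than in macrophages, with 2 lower in each comparison. Dissociation and stress genes were higher too, for 8 of 20 (1 lower) and 9 of 20 (2 lower). T cell markers were higher than in macrophages for 6 of 9 (1 lower, median 1.41) and than in monocytes for 0 of 1. B cell markers were higher than in macrophages for 3 of 4 (1 lower) and than in monocytes for 2 of 3 (0 lower). The part of these cells and of tissue handling was not tested. Cxcl2, which calls further neutrophils, was at 25684 CPM in control and 10587, 16453, 14656, 18768 and 18933 CPM in neutrophils and at 3505 CPM in control and 551, 971, 1082, 2598 and 2587 CPM in monocytes (log2 fold change 3.81 ± 0.23 (SE), adjusted p = 5.33e-09). Every neutrophil value lay above every monocyte value. Il1b, the inflammasome cytokine, was at 5010.5 CPM in control and 4200.4, 7322, 4546, 7805 and 7572 CPM (log2 fold change 3.16 ± 0.19 (SE), adjusted p = 4.46e-09), and Il1r2, the decoy receptor of the same cytokine, averaged 4581 ± 771 CPM against 209.9 ± 51.3 CPM in monocytes (SD, n = 6).

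Several genes tied to T cell restraint were higher in neutrophils. Cd274, which encodes PD-L1, the target of the antibody, was at 1302 CPM in control and 920.1, 1979, 1321, 1384 and 2221 CPM in neutrophils and at 294 CPM in control and 344, 486, 336, 471 and 606 CPM in monocytes (log2 fold change 2.19 ± 0.17 (SE), adjusted p = 4.64e-08). It was higher in neutrophils in all 6 libraries, and also against macrophages. Acod1, which makes itaconate, and Ptgs2, which makes prostaglandins, were higher than in both other classes (Acod1 against monocytes, log2 fold change 6.02 ± 0.24 (SE), adjusted p = 8.56e-11). Of 12 measured suppressor genes, 6 were higher and 1 lower than in monocytes, and 5 higher and 2 lower than in macrophages. Of 15 checkpoint and inhibitory surface genes, 7 were higher in each comparison, and 2 were lower than in monocytes and 1 lower than in macrophages.

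Sugar uptake and interferon genes were part of the neutrophil profile. Slc2a3 and Slc2a1, the glucose carriers, were higher than in monocytes (log2 fold change 5.69 for Slc2a3, and for Slc2a1 log2 fold change 1.40 ± 0.15 (SE), adjusted p = 1.27e-06). They were among 10 of 22 glycolysis and hypoxia genes that were higher, and none was lower. Slc2a3 could pass the count minimum through neutrophils alone, so no p is given for it. Against macrophages 6 of the 22 were higher and 1 lower, with a list median of 0.24. Of 25 interferon genes, 12 were higher and 2 lower than in monocytes, with Rsad2, which blocks viral release, among the higher (log2 fold change 2.67 ± 0.21 (SE), adjusted p = 7.47e-08). Ifit3 and Ifit3b, and the Bcl2a1 genes named next, are near copies of one another, so that their single counts are uncertain. Survival genes were higher for 9 of 15 and lower for 1 against monocytes, with Mcl1 and Bcl2a1 family members, which hold off cell death, among the higher, and against macrophages they were higher for 6 of 15 and lower for 1. The fucosylation genes held no higher member in either comparison: 3 of 7 were lower than in monocytes and 5 of 10 lower than in macrophages.

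The genes lowest in neutrophils included markers of monocytes and macrophages. Timp1, an inhibitor of metalloproteases (2.56 ± 0.856 CPM against 160.2 ± 83.8 CPM), Fn1 (fibronectin), Vcan (versican) and Ccr2, the receptor that brings monocytes into tissue, had log2 fold changes of -5.20, -4.63, -4.42 and -4.00 against monocytes. Against macrophages, the apoptotic cell receptor Mertk (-6.05) and the mannose receptor Mrc1 (-5.67) were among the lowest. Of the listed macrophage markers, Gpnmb was higher in neutrophils than in both classes, and of the listed monocyte markers, Cx3cr1 was higher than in monocytes and Ly6c2 than in macrophages.

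The second question was how neutrophils of the control tumor differed from those of the treated tumors. Most genes of the glycolysis and hypoxia list were highest in control, and most genes of the interferon, specific granule and NADPH oxidase lists were lowest there. Of 8353 genes measured in neutrophils, 97 (1.16%) were at least 2-fold higher in control than in each of the 5 others on the log2(CPM + 5) scale and 95 (1.14%) at least 2-fold lower, and control was simply the highest of the 6 for 18.7% of genes and the lowest for 27.2%. The median gene stood at -0.12 in control against the median of the other 5. These counts describe 1 mouse against 5 and carry no test.

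Among 22 glycolysis and hypoxia genes, control was the highest for 17 and the lowest for 0, and 4 were 2-fold above all others (Pfkl, Tpi1, Ldha and Bnip3), with a list median of 0.74. Ldha, which turns pyruvate into lactate, was at 864 CPM in control and 270.1, 231, 344, 276 and 311 CPM. Bnip3 was at 434 CPM in control and 57.9, 63.1, 118, 114 and 148 CPM and Egln3 at 917 CPM in control and 245, 244, 553, 199.8 and 309.9 CPM. The control value was the highest for each, with anti-PD-L1 second for Ldha and Egln3. Slc2a1 ran in the same order at the top, with 776 CPM in control and 281, 294, 432, 263 and 419 CPM. Hif1a itself, the oxygen-sensing transcription factor, differed less (562 CPM in control and 344, 348, 458, 354 and 407 CPM). The lowest of the 6 values was in 2FF for Ldha, in 2DG for Bnip3 and in 2DG plus anti-PD-L1 for Egln3.

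Suppressor genes and stefins went the same way. Wfdc17, a small secreted inhibitor often listed for suppressor cells, was at 3927 CPM in control and 1253, 883, 1204, 691 and 1540.3 CPM. Control was at least 2-fold above each other tumor for this gene. Of 12 suppressor genes control was the highest for 8, with a median of 0.57. Of 9 measured stefins it was the highest for 4 and the lowest for none, with a median of 1.02. Without Cstb it was the highest for 3 of 8, with a median of 0.98. Cstdc4 stood at 1148 CPM in control and 485, 385, 459, 466 and 501 CPM, and Cstb, the broadly expressed cystatin B, at 788 CPM in control and 178, 249, 182, 344 and 343 CPM. Stfa1 did not follow, with 60.0 CPM in control and 35.5, 43.9, 94.2, 93.3 and 39.9 CPM. Among 18 chemokines and cytokines 1 stood apart, Cxcl3, another Cxcr2 ligand, at 3443 CPM in control and 328, 684, 428, 834 and 877 CPM. The list median was 0.06. Tnf went the other way, with its lowest level in control (80.9 CPM in control and 96.5, 207, 179, 352 and 243 CPM).

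Interferon genes were low in control: of 25, control was the lowest for 16 and the highest for 1, and 5 were at least 2-fold below every other tumor, with a list median of -0.96. Gbp2 and Gbp5, guanylate-binding proteins of cell-autonomous immunity, were at 244 CPM in control and 656, 1479.9, 703, 1001 and 998 CPM and 42.4 CPM in control and 182, 528, 209, 407 and 479 CPM. Cxcl10, which attracts T cells, was at 82.2 CPM in control and 290.5, 685, 175, 407 and 593 CPM. For each of the 3 the 2FF tumor was the highest. Isg15, a ubiquitin-like antiviral protein, was not lowest in control (455 CPM in control and 447, 1088, 568, 738 and 943 CPM). Natural killer cell markers summed to 6.06 CPM in control neutrophils and to 30.5 to 139 CPM elsewhere, most UMIs being those of Nkg7, and their part in the result was not tested.

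Specific granule genes were low in control as well, with 8 of 10 at their lowest, 3 of them (Ltf, Camp and Ngp) by at least 2-fold, and a median of -1.31. Ngp was at 539 CPM in control and 6148, 3048, 5631, 5379 and 3292 CPM, Camp at 324 CPM in control and 4586, 2340.3, 3441, 4214 and 3004 CPM and Ltf at 297 CPM in control and 3002, 1238, 2837, 2097 and 1449 CPM. These totals came from few cells: the 3 cells richest in Ngp held 24.3 to 54.9% of its UMIs in the treated tumors, and those richest in Camp 36.2 to 65.0%. Cybb and Ncf1, parts of the NADPH oxidase that makes superoxide, were lowest in control too, at 93.9 CPM in control and 466, 334, 516, 588 and 438 CPM and 279 CPM in control and 758, 666, 701, 630.0 and 657 CPM.

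**Figure D2:**
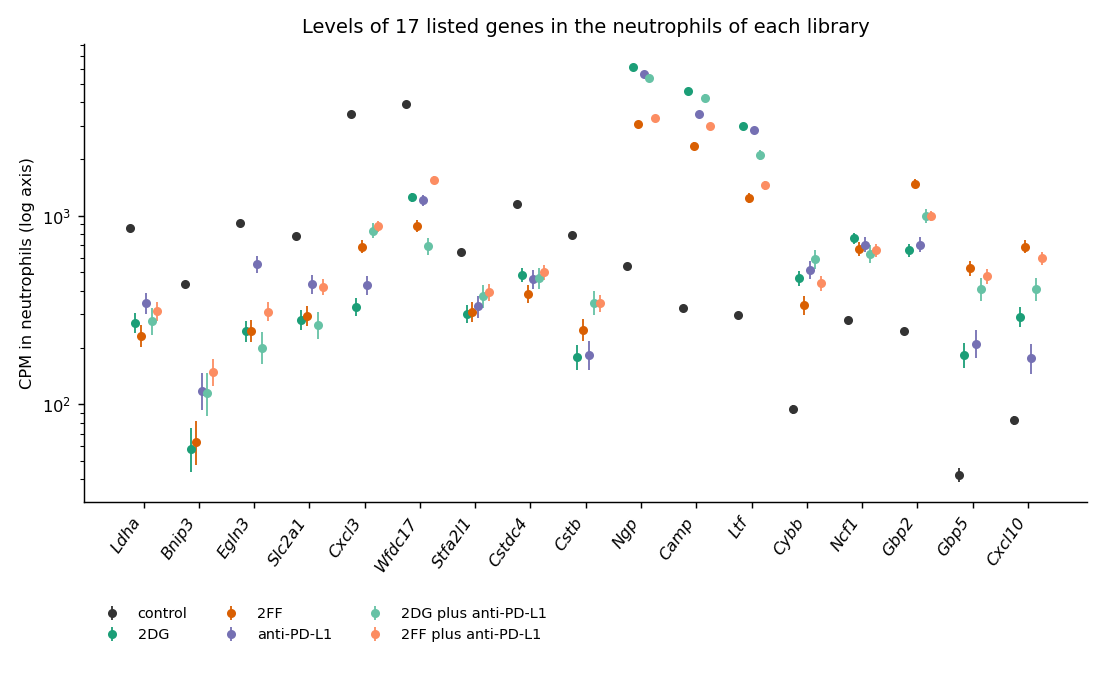
Neutrophil levels of 17 genes in the 6 libraries, in CPM on a log axis with exact Poisson 95% intervals. Control is the highest point for Ldha, Bnip3, Egln3, Cxcl3 and Wfdc17 and the lowest for Ngp, Camp, Ltf, Cybb and Gbp5.

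The same counts were made without the cells that held at least 3 UMIs of Ltf, Camp and Ngp (the granule state, 228 cells), a step chosen after the data had been seen. Among the remaining neutrophils 67 of 8093 genes (0.828%) were at least 2-fold above and 72 (0.890%) below all treated tumors, and control was the highest for 16.6% of genes and the lowest for 20.6%. The specific granule median was then 0.11, with 0 genes 2-fold apart. The glycolysis and hypoxia median was 0.84 with control the highest for 17 of 22 genes and 2 genes 2-fold above (Ldha and Bnip3, no longer Pfkl and Tpi1), the stefin median 1.09 with control the highest for 6 of 9 and 1 gene 2-fold above (Cstb, no longer Cstdc4), the interferon median -1.08 with control the lowest for 20 of 25, and the NADPH oxidase median -0.54 with control the lowest for 6 of 7 and 0 genes 2-fold below, against Cybb and Ncf1 among all neutrophils.

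Monocytes and macrophages of the same tumors put these shifts beside their own. In monocytes, where 105 of 7002 genes (1.50%) were 2-fold above and 135 (1.93%) below all others, the glycolysis and hypoxia median was 0.82 (control highest for 17 of 21 genes) and the interferon median -0.85 (lowest for 16 of 24), where control was the highest for 21.6% of all genes measured and the lowest for 36.1%. In macrophages, where 38 of 10456 genes (0.363%) were 2-fold above and 50 (0.478%) below, the interferon median was -0.76 (lowest for 20 of 24), whereas the glycolysis and hypoxia median was 0.0033 (highest for 6 of 22, where control was the highest for 27.3% of all genes measured and the lowest for 23.6%). For the 12 suppressor genes the median was 0.83 in monocytes (highest for 9) and 0.09 in macrophages (highest for 3, lowest for 4), and the stefin median was 1.28 over 5 genes in macrophages (highest for 4), with 1 stefin measured in monocytes (1.11). Egln3, for example, was at 232 CPM in control monocytes against 15.7 to 49.1 CPM elsewhere, and Ldha in macrophages at 568 CPM against 448 to 565 CPM. Some neutrophil genes were high in control in both classes: the median of the 3 measured genes of the neutrophil rule was 3.44 in monocytes and 2.39 in macrophages, although control was the lowest for 1 of the 3 in each class. Of 14 neutrophil genes outside the rule, control was the highest for 7 and the lowest for 3 in monocytes (median 0.56) and the highest for 6 and the lowest for 2 in macrophages (median 0.23). Mmp8, Lcn2 and Wfdc21 were 2-fold above all others in control monocytes and Cd177 2-fold below, and S100a8, S100a9 and Mmp8 were 2-fold above in control macrophages. The part of neutrophil transcripts in these shifts, that of Egln3 included, was not tested, nor whether their size differs between the classes.

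**Figure D3:**
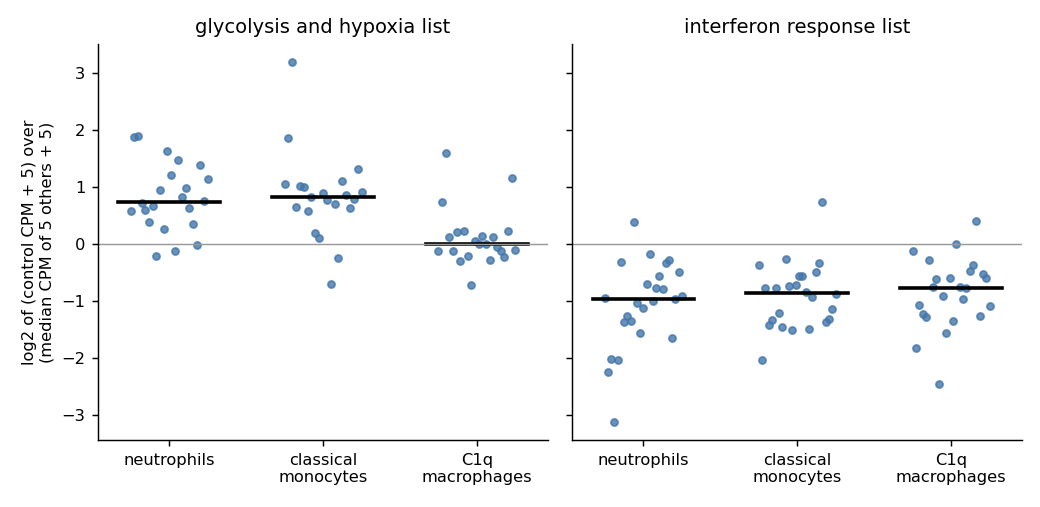
Log2 of control over the median of the 5 treated libraries (CPM + 5), 1 point per gene, for the glycolysis and hypoxia list and the interferon list in neutrophils, classical monocytes and C1q macrophages, with a bar at the list median. The interferon medians lie at -0.96, -0.85 and -0.76, and the glycolysis and hypoxia medians at 0.74, 0.82 and 0.0033.

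Some genes of the dissociation and stress list were also higher in control neutrophils. Control was the highest for 9 of 20 and the lowest for 1, with a median of 0.38, and Jun, an immediate early transcription factor, stood at 2448 CPM in control and 949, 885, 1162, 784 and 1104 CPM. Hsp90aa1, a heat shock chaperone, was at 1278 CPM in control and 372, 434, 450.2, 348 and 853 CPM. The part of tissue handling, of the neutrophil transcripts found outside neutrophils in this library and of its depth in the control profile was not tested. F13a1 and Fn1, which macrophages hold at far higher levels, were 2-fold above all others in control neutrophils (F13a1 at 160.4 CPM in control and 9.14, 18.0, 43.4, 28.5 and 57.3 CPM), while Ly6c2 and Ly6a were 2-fold below (Ly6c2 at 67.4 CPM in control and 460.1, 294, 353, 324 and 289 CPM).

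Each treatment was then set against control, and these 3 comparisons share the control mouse, so their likeness is no separate evidence. For 2DG, 773 of 8568 genes (9.02%) were at least 2-fold higher and 623 (7.27%) lower, for 2FF 848 of 8549 (9.92%) and 549 (6.42%), and for anti-PD-L1 541 of 8428 (6.42%) and 517 (6.13%). The median gene stood at 0.17, 0.19 and 0.05 in these comparisons, and centring on it turned the share of higher genes from 55.4 to 35.9% for 2DG and from 60.7 to 38.1% for 2FF, so the balance of higher and lower genes depends on the scaling.

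In the 2DG tumor 7 of 8 measured cell cycle genes were 2-fold higher than in control (median 2.12), from few cells, as were granule and oxidase genes: 7 of 10 specific granule genes were 2-fold higher and 1 lower (median 1.83), and 5 of 7 NADPH oxidase genes higher and 0 lower (median 1.22). Glycolysis and hypoxia genes were 2-fold lower for 9 of 22 (median -0.70), chemokines and cytokines for 9 of 18 (median -0.88) and suppressor genes for 6 of 12 (median -0.85). Outside the lists, the genes picked by size were Supv3l1, a mitochondrial RNA helicase (132 against 14.4 CPM, log2 ratio 2.82), H2-Q6, a nonclassical MHC class I gene whose reads can be confused with those of its neighbours such as H2-Q7 (99.5 against 11.4 CPM), and Ifitm6, of the interferon-induced membrane proteins (1130 against 208 CPM), at the high end. At the low end were P2rx7, the ATP-gated channel (1.02 against 124 CPM, log2 ratio -4.42), Gpsm1, with 0 UMIs against 74.5 CPM, and Hilpda, a lipid droplet protein of the hypoxia response (138 against 1637 CPM). Ccl3, a Ccr1 ligand, was lowest in this tumor (2796 CPM in control and 553, 1568, 1285, 2035 and 1989 CPM).

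In the 2FF tumor the interferon genes were above control, with 17 of 25 at least 2-fold higher, 0 lower and a median of 1.15, against 6 of 25 (0.58) in 2DG and 10 of 25 (0.93) in anti-PD-L1. The highest ratios by rule were those of Gbp5 (3.49, 528 against 42.4 CPM), H2-Q7 (2.94, 220 against 24.2 CPM), Ifi47, an interferon-induced GTPase (2.77, 357 against 48.2 CPM), and Psmb10, a subunit of the immunoproteasome (2.71, 125 against 14.8 CPM). The lowest included Slc24a3, a sodium, calcium and potassium exchanger (7.88 against 150.3 CPM), Gpnmb (2.25 against 73.7 CPM) and Hpgds, which makes prostaglandin D (1.13 against 47.0 CPM). Stefins were 2-fold lower for 5 of 9 and higher for none (median -1.03), and glycolysis and hypoxia genes lower for 8 of 22 (median -0.77). Specific granule genes had a median of 0.87, which turned to -0.11 without granule-state cells. B cell (168 CPM) and dendritic cell (171 CPM) markers were also highest by CPM in neutrophils of the 2FF tumor among the 6 libraries, and the part of such markers in these ratios was not tested.

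In the anti-PD-L1 tumor 6 of 10 specific granule genes were 2-fold higher and 0 lower (median 1.69), 4 of 7 NADPH oxidase genes higher (median 1.03), and 4 of 9 stefins lower (median -0.94). H2-Q7 was at 179 against 24.2 CPM and Flna, an actin crosslinker, at 326 against 74.3 CPM. Cxcl3 (428 against 3443 CPM) and Hspa1b, an inducible heat shock protein with a near-identical neighbour, Hspa1a (43.4 against 326 CPM), were among the lowest, beside Atp6v0d2, a subunit of the proton pump (7.48 against 120 CPM).

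Next, the combinations were set against anti-PD-L1 alone, the comparison on which the study focused for 2FF. For 2FF plus anti-PD-L1, 110 of 3744 genes (2.94%) were at least 2-fold higher and 68 (1.82%) lower, with a median of 0.01. Among the highest were Sod2, the mitochondrial superoxide dismutase (386 against 139 CPM, log2 ratio 1.44), Zfp36, which degrades cytokine mRNA (2412 against 897 CPM, 1.42), F3, the tissue factor that starts clotting (447 against 166 CPM, 1.40), and H2-T23, the class I gene that presents to NKG2A (144 against 38.9 CPM, 1.77). Lower were Pi16 (31.7 against 129 CPM, -1.86) and Mmp8, the neutrophil collagenase (332 against 879 CPM, -1.39). Chemokines and cytokines were 2-fold higher for 3 of 16 with none lower (median 0.41), suppressor genes for 2 of 10 with none lower (median 0.46), and specific granule genes were lower for 2 of 9 (median -0.77).

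For 2DG plus anti-PD-L1, 100 of 3173 genes (3.15%) were higher and 66 (2.08%) lower than in anti-PD-L1 alone, with a median of 0.05. Ccrl2, which holds chemerin at the surface (1682 against 583 CPM, 1.52), and Icam1, the adhesion molecule (506 against 173 CPM, 1.52), were among the highest, and Mmp8 (289 against 879 CPM, -1.59), Pi16 (47.6 against 129 CPM, -1.35) and Adam8, a surface metalloprotease (147 against 375 CPM, -1.33), among the lowest. Glycolysis and hypoxia genes were 2-fold lower for 2 of 22 and higher for none (median -0.37). Survival genes were higher for 3 of 14 and lower for 1 (median 0.52). Both combinations were set against the same anti-PD-L1 mouse. Without granule-state cells the Mmp8 ratio of 2FF plus anti-PD-L1 turned to 0.93.

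The combinations were also set against the inhibitor alone. Against 2DG alone, 92 of 3752 genes (2.45%) were higher and 94 (2.51%) lower, among the higher Icam1 (506 against 105 CPM, 2.22), Abca1, a cholesterol exporter (373 against 105 CPM, 1.79), Nr4a1 (259 against 81.2 CPM, 1.61), Ccrl2 (1682 against 585 CPM) and Il1a (440 against 154 CPM). Against 2FF alone, 109 of 4135 (2.64%) were higher and 96 (2.32%) lower, among the higher Gde1 (79.8 against 20.3 CPM, 1.75), Osbpl8 (806 against 289 CPM, 1.46) and Mapk6 (309 against 119 CPM, 1.34). Among 3619 genes measured in all 3 pairs with and without the antibody, 0 (0.00%) were at least 2-fold higher in all 3 and 0 (0.00%) at least 2-fold lower in all 3.

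Neutrophils were then divided into states by a few genes each, described as shares of cells. The granule state (at least 3 UMIs of Ltf, Camp and Ngp) held 228 of 3496 neutrophils, at 4.52% in control (3.74 to 5.42%), 15.7% in 2DG (11.1 to 21.2%), 7.66% in 2FF, 18.1% in anti-PD-L1 (12.8 to 24.5%), and 7.10% and 8.37% in the combinations with 2DG and 2FF. The 2DG and anti-PD-L1 intervals lay above that of control, and after thinning every cell to 1000 UMIs (a cell with at least 1 UMI counted) the shares were 4.98%, 18.0%, 8.46%, 19.7%, 8.51% and 9.41%. Granule-state cells were deeper than the rest in every library, with medians of 5466.5 to 8865 UMIs against 2484 to 3992.

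Granule-state cells held fewer chemokine and more oxidase transcripts. Their summed chemokine and cytokine level was 26779.5 CPM in control and 5068, 12574, 8454, 6353 and 11007 CPM elsewhere, below the 46318, 28526, 36417, 38441, 42902 and 45981 CPM of the other neutrophils in every library. Their summed NADPH oxidase level was 3485 to 6390 CPM against 1592 to 3044 CPM. In 2DG 0 of the 34 granule-state cells was in the chemokine state, against 33.3% of the rest.

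The chemokine state (at least 3 UMIs of Ccl3 and Ccl4) held 2082 neutrophils, with 66.7% in control, 28.1% in 2DG, 40.6% in 2FF, 43.4% in anti-PD-L1, 45.2% in 2DG plus anti-PD-L1 and 56.8% in 2FF plus anti-PD-L1. After thinning, the order from control to 2DG was the same at its ends, 66.4% and 30.7%. T cells make these chemokines themselves, and 47.8 to 73.3% of them held a UMI, so no background share can be read from them. The interferon state (at least 3 UMIs of Ifit1, Ifit3, Rsad2 and Isg15) held 1386 neutrophils, with 37.0% in control, 33.6%, 48.7%, 37.4% and 38.7% in the next 4 and 66.1% (59.5 to 72.2%) in 2FF plus anti-PD-L1. The last interval lay above those of all 5 others. Thinned to 1000 UMIs, with at least 1 UMI counted, the shares were 36.5% in control and 41.4, 56.8, 45.5, 46.0 and 64.3%, so that control rather than 2DG was the lowest and the 2FF combination stayed the highest. T cells thinned alike held such a UMI in 6.16 to 8.14% of cells. Interferon-state cells were in the chemokine state more often than the rest in all 6 libraries, for example 76.3% against 61.1% in control and 64.7% against 30.7% in anti-PD-L1. Their median depth was 4785.5 UMIs against 3756 in control and 2689 against 2788.5 in anti-PD-L1. This overlap is given without thinning, and the part of depth in it was not tested.

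Siglecf, a lectin seen on some tumor neutrophils, was rare: 122 neutrophils held a UMI, 2.77% in control and 3.30 to 7.74% elsewhere.

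**Figure D4:**
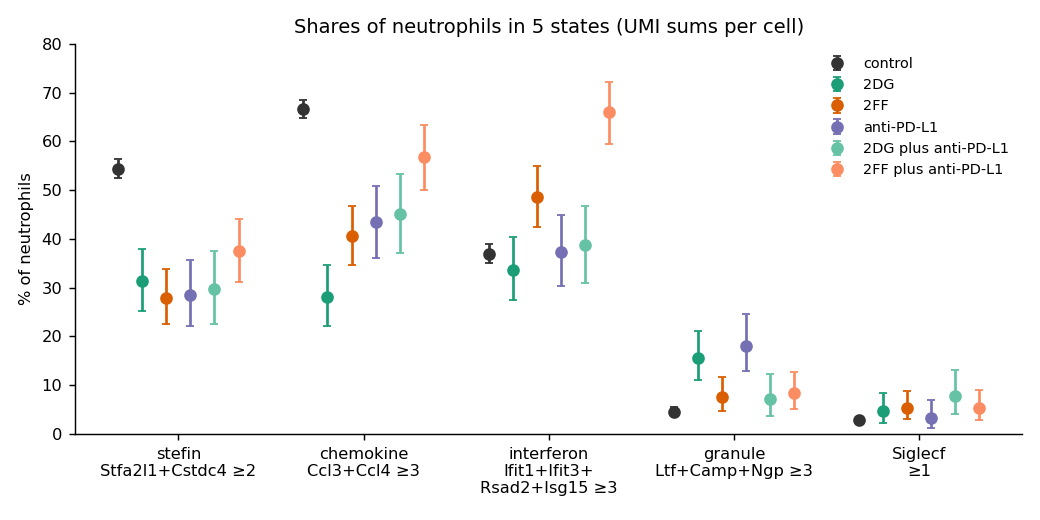
Percentage of neutrophils in each state by library, with exact binomial 95% intervals. Control is the highest for the stefin state (54.4%) and the chemokine state (66.7%) and the lowest for the granule state (4.52%), and 2FF plus anti-PD-L1 is the highest for the interferon state (66.1%).

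The stefin state (at least 2 UMIs of Stfa2l1 and Cstdc4) held 1659 neutrophils. It covered 54.4% of neutrophils in control (52.4 to 56.4%), 31.3% in 2DG (25.2 to 38.0%), 28.0% in 2FF, 28.6% in anti-PD-L1, 29.7% in 2DG plus anti-PD-L1 and 37.4% in 2FF plus anti-PD-L1 (31.1 to 44.1%). The control interval lay above all 5 others, and thinned to 1000 UMIs the shares were 47.8% and 27.4, 24.7, 26.3, 28.3 and 32.6%. A stefin UMI was seen in 4.46% of control T cells and in at most 0.195% of T cells elsewhere. Within the state the median cell held 10 UMIs of both genes in control and 5 to 7 elsewhere, with up to 160 in 1 control cell, and 292 neutrophils held exactly 1 UMI.

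Stefin-state cells were compared with neutrophils that held no stefin UMI, library by library, which sets 6 mice against themselves. The median depth was 4600 UMIs in the state and 3618 outside it in control, and 2569 to 3342.5 against 2492.5 to 3274 UMIs in the treated tumors. In the state, 6 of 4005 genes (0.150%) were higher and 14 (0.350%) lower by the same edgeR test, with the stefins left out and a median log2 fold change of 0.02. The balance depended on the method: DESeq2 gave 10 higher and 5 lower, and cells thinned to 1000 UMIs gave 6 and 4. With library size alone as scaling it was 3 higher and 20 lower. Fam162a, a mitochondrial protein of the hypoxia response, was at 542 CPM in control and 183, 107, 145, 283 and 237 CPM in the state and at 222 CPM in control and 32.3, 38.1, 42.5, 39.1 and 57.5 CPM outside it (log2 fold change 1.95 ± 0.18 (SE), adjusted p = 0.000176). It was higher in all 6 libraries. Cxcl3 was at 3862 CPM in control and 647, 989, 453, 1698 and 1309 CPM in the state and 2759 CPM in control and 163, 543, 435, 538 and 685 CPM outside (log2 fold change 1.05 ± 0.18 (SE), adjusted p = 0.0198), in anti-PD-L1 by the smallest step. The rest were Fam71f2 (log2 fold change 1.26), Hilpda (log2 fold change 1.06 ± 0.20 (SE), adjusted p = 0.0208), Fabp5 and Spp1. Fabp5 is a fatty acid binding protein and Spp1 is osteopontin. Hilpda, Fabp5 and Spp1 were higher in 5 of 6 libraries. Fam71f2 could pass the count minimum through cells of the state alone, so no p is given for it.

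Lower in the state were 4 of 9 specific granule genes, 1 of 7 NADPH oxidase genes (Cybb) and 1 of 3 measured cell cycle genes (Mki67). Chil3, a chitinase-like protein of granules, was at 279.9 CPM in control and 417, 125, 331, 7.65 and 106 CPM in the state and 475 CPM in control and 1395, 623, 869.7, 1381 and 1329 CPM outside (log2 fold change -2.07). Its values did not overlap. Camp, Ngp and Ltf went with it (log2 fold changes of -2.87, -2.49 and -2.20), as did the proliferation marker Mki67 (-1.71). Cebpe, the factor that drives specific granule genes, was lower too (-1.54), as was Cybb (log2 fold change -1.29 ± 0.23 (SE), adjusted p = 0.0198). Chil3, Camp, Ngp, Ltf, Mki67 and Cebpe could pass the count minimum through cells outside the state alone, or nearly so. No p is therefore given for them, and the counts of called list members are descriptions. The specific granule list had no higher member and a median of -0.97. Of 22 glycolysis and hypoxia genes 0 were called by edgeR in either direction although the list median was 0.42. As shares of cells, 25% of stefin-state cells in anti-PD-L1 were in the granule state, against 15.4% of its other neutrophils. In every other library that share was lower in the stefin state than in the rest.

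**Figure D5:**
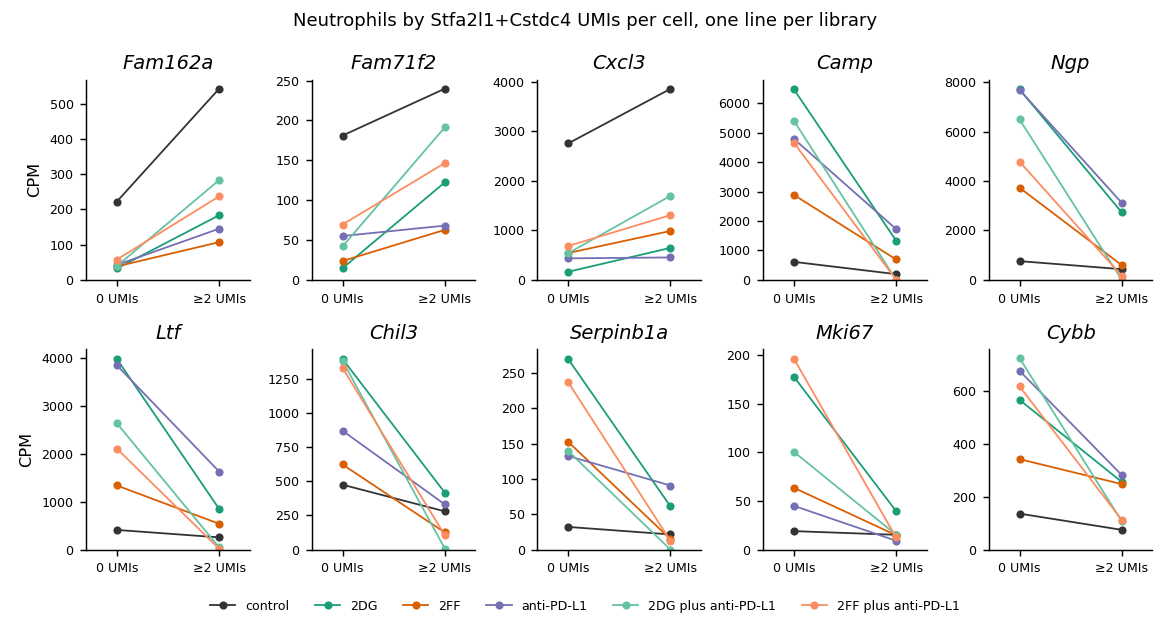
CPM of 10 genes in neutrophils with 0 UMIs and with at least 2 UMIs of Stfa2l1 and Cstdc4, 1 line per library, on linear axes. Lines for Fam162a climb in all 6 libraries and those for Chil3, Cybb and Mki67 go down in all 6.

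How many genes were called in this comparison depended on single libraries: 54 without control, 1 without 2DG, 1 without 2DG plus anti-PD-L1, 6 to 13 without each of the others, and 2 without granule-state cells, against 20 with all. Fam162a was called in 11 of 12 alternatives, with log2 fold changes of 1.79 to 2.14, Cxcl3 and Cybb in 7 of 12 each, Chil3 in 6 of 12, Fam71f2 and Ngp in 4 of 12 and 4 of 11, Camp and Ltf in 5 of 11 each, and Mki67 in 3 of 8. The log2 fold change came as close to 0 as -0.49 for Chil3 and -0.51 for Cybb.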

How the data were processed

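KPCA tumors of 6 mice, 1 per group, were digested and profiled with a 10x Genomics 3' kit. The authors made filtered UMI count matrices with Cell Ranger (version 7.0.0 per the file headers, 3.1.0 in the submitters' processing notes) on mm10, and the deposited counts are raw, over 32285 genes, with the study's limits on genes and mitochondrial share not applied. The number of per-sample columns not used was 0. Members, gene lists and states were chosen with earlier results of these data known.

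Cells were gated on raw UMIs. Treatment ratios were log2 of (CPM + 5) of summed cells for genes with at least 50 UMIs in the pair, described at 2-fold with exact Poisson intervals (95%). Shares have exact binomial (Clopper-Pearson) intervals. Both cover counting error only. Class and state contrasts used edgeR 4.0.16 (R 4.3.3, TMM, filterByExpr, quasi-likelihood, library block) on UMI sums, checked on simulated data, with DESeq2 1.42.0 as an alternative. Genes named were the members of 31 lists and, by size, 5 at each end per treatment comparison and 10 at each end per class contrast, with the same direction in all 6 libraries and a mean of at least 100 CPM in the higher class. Left out by that rule were mitochondrial, ribosomal, immunoglobulin, T cell receptor, haemoglobin and gate genes, Xist, and, for treatment, genes with over 20% of UMIs in 3 cells or with neutrophil CPM under 20% of that of all other cells. Genes given outside the rule were chosen after their values were seen. Python 3.11.15 (numpy 2.4.6, pandas 2.3.3, scipy 1.17.1, matplotlib 3.10.9) was used. Promoter windows came from RefSeq, GRCm38.p6. The authors' batch handling, clustering and cell type calls were not used here. Some genes and alleles are not reported here.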

Additional observations from a re-analysis of the deposited data

Results flagged for a closer look

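The share of neutrophils in the chemokine state (at least 3 UMIs of Ccl3 and Ccl4) moved in opposite directions when anti-PD-L1 was the added agent: it was 23.3 percentage points lower than control with the antibody alone (a change of -23.3), but 17.1 points higher than 2DG in 2DG plus anti-PD-L1 and 16.2 points higher than 2FF in 2FF plus anti-PD-L1. The difference between these changes was not tested, since each rests on 1 mouse per group.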

How the results depend on the processing

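Each treatment rests on 1 mouse, so that comparisons between single treatments are descriptions, and the 5 treated tumors held 155 to 261 neutrophils each, so that genes near 1 to 3 UMIs could not be compared. The labels give no replicate numbers. The antibody over its 3 backgrounds (3 libraries with it, 3 without) was not tested. In the class and state contrasts the library was a replicate block. Without the block, 0 genes were called in the stefin-state contrast by edgeR (238 at an unadjusted p under 0.05), against 20 with it (15 by DESeq2 with it).

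The neutrophil share of control was 28.2% with an S100 minimum of 5, 25.5% with 20, 29.1% with a second sum of at least 2, 29.3% of cells with a Ptprc UMI, and 16.0% under a strict gate with 0 UMIs of Csf1r, C1q, Trac and Cd74. The strict gate gave 1.51, 1.33, 1.10, 0.875 and 1.63% in the treated tumors, and the S100 minimum of 20 gave 2.31% in 2FF. The stefin state at 5 or more UMIs held 41.6% in control and 17.5, 14.2, 18.1, 17.4 and 24.2% elsewhere, and 47.8% in control when thinned. Against control, genes past 2-fold numbered 2200 (2DG), 2201 (2FF) and 1840 (anti-PD-L1) with 1 CPM and 569, 552 and 389 with 20 CPM. With 20 CPM, the combinations with 2DG and with 2FF gave 96 and 85 against anti-PD-L1 and 104 and 96 against the inhibitor alone. At 200 or more UMIs the counts were 929 (2DG) and 703 (anti-PD-L1) against control and 36, 45, 47 and 49 in those 4 comparisons, which became 1309, 975, 1122 and 817 with no minimum. For the 2FF combination over 2FF, 329 genes passed with every cell weighted equally and 344 without granule-state cells. In that comparison and in the 2DG combination over anti-PD-L1, centring moved the share of higher genes from 53.2 to 65.7% and from 60.2 to 50%. Without granule-state cells, an alternative chosen after seeing the data, the specific granule median of 2FF over control was -0.11 and the log2 ratio of Mmp8 in the 2FF combination over anti-PD-L1 was 0.93. Thinning to 1000 UMIs left 1618 of 3657 tested genes called against monocytes (3669 of 8839 without thinning). Against macrophages it left 3373 of 6425 (6069 of 11879 without thinning). The stefin-state contrast called 76 genes with no filter, 10 when thinned, 2 without granule-state cells, and 1 to 54 when 1 library was left out. Of 587 values of named genes in the edgeR contrasts under alternatives, 533 kept direction and call and 54 lost the call, all 54 among the 111 values of the stefin-state contrast, and 633 of 646 treatment ratios of named genes and 549 of 560 list medians stayed close. The causes of these changes were not tested.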

Other observations

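Genes that attach fucose were sparse in neutrophils. Fut8, the core fucosyltransferase, was at 79.4 CPM in control and 53.8, 47.3, 20.9, 64.7 and 84.9 CPM, and Fut4 and Fut7, which build sugar ligands that let neutrophils roll on vessel walls, were at 1.35 CPM in control and 3.05, 0, 0, 3.81 and 2.05 CPM and at 0.523 CPM in control and 7.11, 0, 0, 0 and 0 CPM, where 3 UMIs were worth 3.05 to 5.71 CPM outside control. The treated libraries were thus at or near that floor for Fut4, and the highest and lowest Fut8 values were those of the 2FF combination and of anti-PD-L1. Mgat5, which adds a branch to N-glycans, varied little (161 CPM in control and 188, 188, 154, 211 and 182 CPM), and St6gal1, which caps them with sialic acid, was highest in control (35.4 CPM in control and 11.2, 12.4, 8.97, 11.4 and 6.14 CPM).

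Transcripts of the earliest granules were counted by cell. Cells with at least 10 UMIs of azurophil granule genes numbered 2 in control, 3 in 2DG, 2 in 2FF, 0 in anti-PD-L1, 0 in 2DG plus anti-PD-L1 and 2 in 2FF plus anti-PD-L1. They held 38.6% of the 166 azurophil UMIs of control, 99.3% of 1844 in 2DG, 98.5% of 608 in 2FF and 99.3% of 969 in 2FF plus anti-PD-L1. Elane, neutrophil elastase, stood at 1.50 CPM in control and 765, 184, 1.50, 0 and 398 CPM. Cells with at least 2 UMIs of Mki67 and Top2a numbered 29 in control and 13, 2, 2, 4 and 5 elsewhere, of which 7 and 9, 2, 2, 3 and 4 were also in the granule state.

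Haemoglobin and Alas2 UMIs summed to 4677 CPM in neutrophils of the 2FF combination and to 0 to 220 CPM elsewhere. In that library 3 cells held at least 10 haemoglobin UMIs, and 1 of these cells held 50.5% of such UMIs.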
